A study of Homo sapiens with 24 samples.

Results

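Interleukin-6 family cytokines, their receptors and the feedback inhibitor SOCS3 were followed in SK-MES1 cells, an established human line of lung squamous cell carcinoma (LUSC). The 10 genes described are the ligands IL6, IL11, LIF and CLCF1, the ligand-binding receptors IL6R and IL11RA, the signalling receptors IL6ST, LIFR and OSMR, and SOCS3. They are 10 of 17453 genes that reached 10 estimated counts in 3 or more libraries, and each of the 10 passed that filter. They were chosen by name with their differences between treated and untreated cells already known, so those differences are given as a description, with standard errors and without a test. All cells were depleted of growth factors for 3 h. The untreated arm was then left untreated and sampled at 0, 8, 24 and 48 h. The TGFβ arm was stimulated with 2 ng/ml TGFβ1 and sampled at the same time points, and its 0 h libraries stand for the start of stimulation. Each of the 8 groups had 3 libraries, which the study describes as biological replicates, for 24 RNA-Seq libraries of a single cell line.

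Cytokines of this family signal through IL6ST, also called gp130, the chain they share. IL-6 and IL-11 first bind their own receptor, IL6R or IL11RA, which carries little signalling capacity itself. CLCF1 likewise binds CNTFR before IL6ST and LIFR, whereas LIF uses IL6ST and LIFR directly. OSMR pairs with IL6ST for oncostatin M. Ligand binding activates JAK kinases and STAT3, and STAT3 induces SOCS3, which in turn blocks the receptor complex. IL11 is a well-known TGFβ-responsive gene in fibroblasts and in epithelial tumours, and LIF and IL-6 are secreted by many carcinomas.

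The stretches of the genome just before the start of 3 members are shown because these 3 had the largest differences between the arms at 8 h. They are RefSeq windows of 300 bases on GRCh38.p14, from 250 bases before to 50 bases after the annotated start, written 5′ to 3′ on the strand of the gene. Capitals mark matches to short motifs searched on both strands.
IL11: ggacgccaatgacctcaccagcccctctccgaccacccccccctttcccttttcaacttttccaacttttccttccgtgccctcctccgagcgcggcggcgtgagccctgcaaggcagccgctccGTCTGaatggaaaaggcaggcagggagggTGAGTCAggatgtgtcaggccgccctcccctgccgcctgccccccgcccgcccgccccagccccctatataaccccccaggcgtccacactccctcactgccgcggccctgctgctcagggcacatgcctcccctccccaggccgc
IL6: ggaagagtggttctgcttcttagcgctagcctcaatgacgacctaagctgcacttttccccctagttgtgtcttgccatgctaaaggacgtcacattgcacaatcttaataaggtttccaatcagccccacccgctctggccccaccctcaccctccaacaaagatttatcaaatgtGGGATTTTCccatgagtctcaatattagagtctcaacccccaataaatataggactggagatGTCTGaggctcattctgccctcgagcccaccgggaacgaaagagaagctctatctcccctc
IL6R: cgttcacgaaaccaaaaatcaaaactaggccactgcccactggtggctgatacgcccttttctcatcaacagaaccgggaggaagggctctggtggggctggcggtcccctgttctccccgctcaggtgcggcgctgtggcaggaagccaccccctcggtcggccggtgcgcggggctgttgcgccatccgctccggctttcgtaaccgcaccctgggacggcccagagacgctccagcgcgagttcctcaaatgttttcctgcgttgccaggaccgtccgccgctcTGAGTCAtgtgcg

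The IL11 window lies at chr19:55370414-55370713 on the minus strand and holds the AP-1 letters TGANTCA 96 bases before the start, with the short SMAD letters CAGAC on the opposite strand 125 bases before it. The IL6 window, at chr7:22726950-22727249 on the plus strand, holds the NF-kB letters GGGANTTTC 73 bases before the start and the SMAD letters 11 bases before it. Not all IL6 transcripts start there. IL6-204 starts upstream of the window and held 2.29 TPM with TGFβ against 0.77 TPM in untreated cells at 8 h (means). Of those with the start of the window, IL6-201 held 0.13 against 0.14 TPM and IL6-209 held 0.83 against 0.33 TPM. In the IL6R window, at chr1:154405093-154405392 on the plus strand, the AP-1 letters stand 37 bases after the start. Among 35116 such windows of annotated genes, 7.71% held the AP-1 letters, 45.3% the SMAD letters, 1.28% the NF-kB letters, 7.66% the STAT letters TTCNNNGAA and 1.85% the CRE letters TGACGTCA. Of the 10 members, 8 had at least 1 window in the table, 12 windows in all, and the STAT letters were found in LIFR windows, 165 and 182 bases before their starts. A match describes the letters only and is not a measured binding site.

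The libraries held between 46613589 and 77964234 estimated counts, with a median of 54120879. The names of the deposited tables carry 4 codes of unstated meaning, with the early libraries (0 and 8 h) of an arm sharing one and its late libraries (24 and 48 h) another, so arm and code cannot be told apart. Log2 changes with time within an arm are therefore given only for 0 with 8 h and 24 with 48 h, which share a code. Levels at 0 h set beside levels at 24 or 48 h differ in code as well as in time. Sampling noise was exceeded in all 24 pairs of replicate libraries, with a chi-square per gene between 3.17 and 60.48. In each arm, replicate 2 at 0 and 24 h stood apart from the other libraries of its group. Its pairs had a chi-square of 14.68 to 60.48 per gene, against 4.13 to 16.76 for the other pair of those groups. Untreated replicate 1 at 8 h also differed more from the others (11.16 and 13.92) than they did from each other (3.17). The TGFβ response was present, since SMAD7, a direct TGFβ target, was 1.98 ± 0.05 (SE, n = 3) higher on the log2 scale in the TGFβ arm at 8 h, and the difference at 0 h was 0.032 ± 0.065 (SE). Of 10 epithelial and squamous markers, 7 reached 1 TPM (a level per library corrected for transcript length) in some group, whereas KRT5, KRT6A and KRT14, keratins of squamous and basal cells, stayed below 0.1 TPM in every group mean. Of 7 fibroblast markers 6 reached 1 TPM, and their sums per library ranged from 210.8 to 317.8 TPM in untreated cells and from 193.4 to 2409 TPM in the TGFβ arm, with COL1A1 alone reaching 2359 TPM in a library. Leukocyte markers (3 of 7 at 1 TPM) summed to 13.1 to 35.9 TPM in untreated cells and 10.1 to 43.0 TPM in the TGFβ arm, with CD3E listed at 0, and endothelial markers (1 of 4) to 0.928 to 3.50 TPM and 0.969 to 4.82 TPM. The part of these markers in the results was not tested.

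At 0 h the members had nearly the same levels in both arms. In untreated cells the order by mean TPM was IL6ST (59.9 TPM), OSMR (59.4), CLCF1 (27.5), LIF (24.9), LIFR (24.2), IL6R (19.0), SOCS3 (17.3), IL11RA (7.16), IL11 (3.83) and IL6 (2.84). The 3 libraries of IL6ST and OSMR overlapped, as did those of CLCF1, LIF and LIFR, those of IL6R and SOCS3, and those of IL11 and IL6. None of the 10 members passed an adjusted p of 0.01 between the arms at 0 h with limma voom (background, 0 of 17453 genes, 0%), and 1 member had an unadjusted p under 0.05, as did 800 of all genes. edgeR also called 0 genes at 0 h and DESeq2 called 8. The log2 differences of the members at 0 h lay between -0.24 for IL6ST and 0.16 for IL11, and the libraries of the arms overlapped for 9 members. The exception was IL11RA, whose TGFβ libraries (5.24, 5.44 and 6.56 TPM) lay below the untreated ones (6.86, 7.28 and 7.33 TPM).

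With stimulation the members parted in both directions. At 8 h, 6 of 10 members differed between the arms past an adjusted p of 0.01, 3 higher and 3 lower with TGFβ, beside a background of 16.4% of all genes (9.12% higher and 7.26% lower). At 24 h the count was 7 of 10, 1 higher and 6 lower (background 29.3%, with 15.4% higher and 13.8% lower). At 48 h it was 8 of 10, 2 higher and 6 lower (background 32.6%, with 16.1% higher and 16.4% lower). The median log2 difference of the 10 members was -0.08, -0.34 and -0.55 at 8, 24 and 48 h, against -0.02, -0.01 and -0.01 over all tested genes. The members were chosen on these differences, and nothing is read from these counts. In bulk RNA, fewer cells that express a gene and less RNA per cell cannot be told apart.

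**Figure D1:**
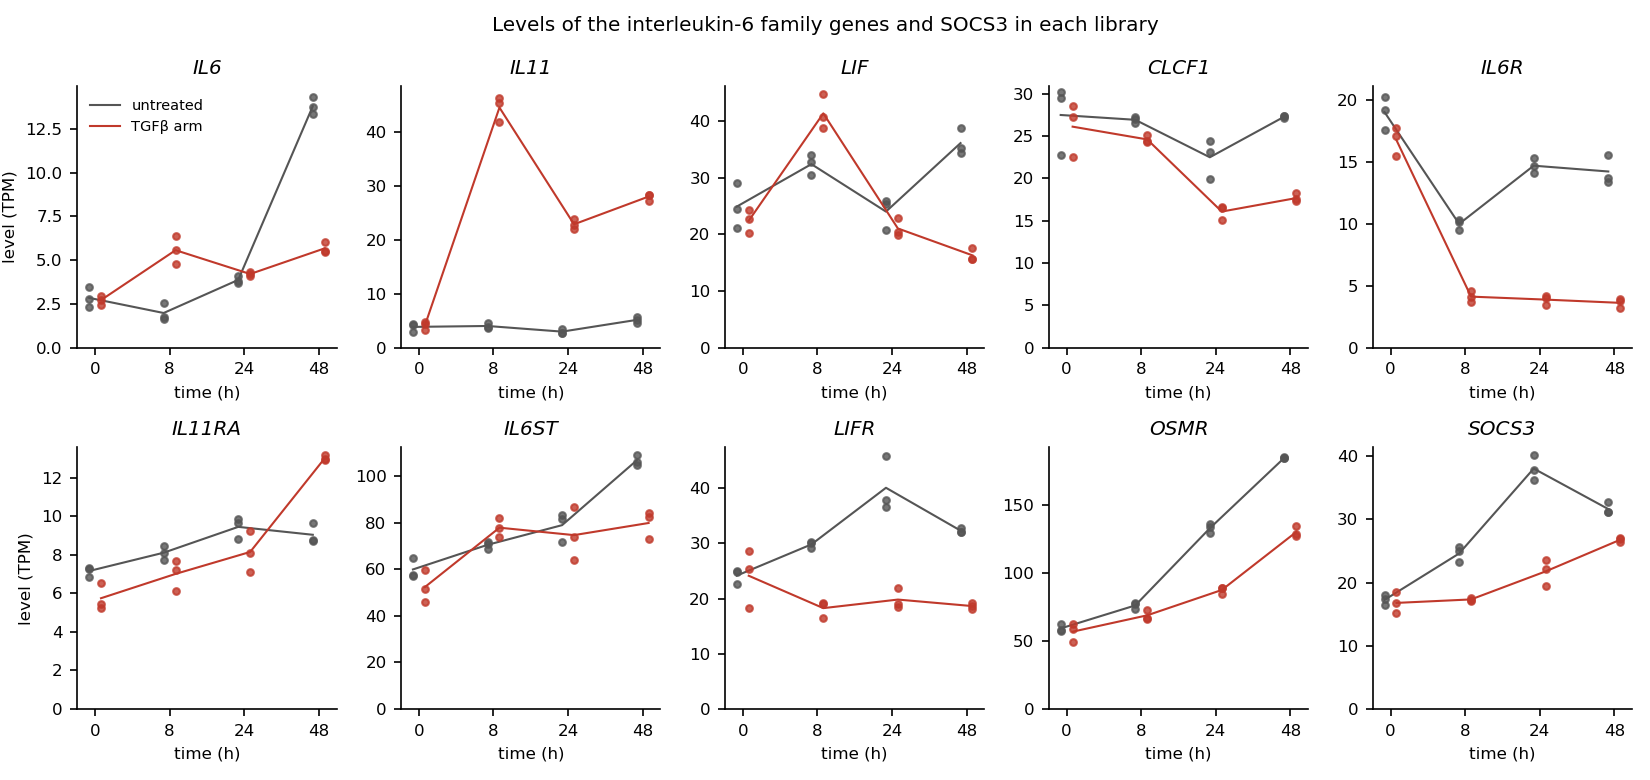
Level of each gene in TPM (vertical axes from 0) against time in h (4 time points, equally spaced) for the 3 libraries per group (points) and their mean (lines), with untreated cells in grey and the TGFβ arm in red. IL11 stands at 41.8 to 46.3 TPM in the TGFβ arm at 8 h against 3.65 to 4.57 TPM in untreated cells, IL6 reaches 13.4 to 14.3 TPM in untreated cells at 48 h, and IL6R stays at or under 4.60 TPM in the TGFβ arm from 8 h on.

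Among the ligands, IL11 (ENSG00000095752), a cytokine linked to fibrosis and epithelial repair, differed most. Untreated libraries held 4.36, 2.96 and 4.19 TPM at 0 h, 3.78, 4.57 and 3.65 TPM at 8 h, 3.43, 2.76 and 2.68 TPM at 24 h, and 5.14, 5.75 and 4.51 TPM at 48 h. The TGFβ libraries held 4.77, 3.19 and 4.30 TPM at 0 h, 45.4, 46.3 and 41.8 TPM at 8 h, 22.8, 22.0 and 23.8 TPM at 24 h, and 28.3, 28.4 and 27.3 TPM at 48 h. All libraries of the TGFβ arm were thus above all untreated libraries from 8 h on, with the highest levels at 8 h. The log2 difference was 3.70 ± 0.11 (SE) at 8 h, 3.23 ± 0.13 at 24 h and 2.66 ± 0.11 at 48 h, and at 8 h this was rank 19 of 17453 genes from the top. The fitted difference at 8 h corresponds to 13.0-fold and the ratio of mean TPM to 11.1-fold. Within the TGFβ arm, where 0 and 8 h share a code, 8 h differed from 0 h by 3.57 ± 0.11 on the log2 scale. Between 24 and 48 h the IL11 message rose in untreated cells, by 0.80 ± 0.15 (adjusted p = 0.00023, limma voom). In the TGFβ arm the corresponding value of 0.23 ± 0.09 did not pass (adjusted p = 0.037). It passed when the summed counts of 4 reference genes of the study's qRT-PCR set the library size (0.66, adjusted p = 1.4e-06), and without replicate 2 of both arms at 0 and 24 h (0.23, adjusted p = 0.009), an alternative chosen after seeing the data.

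IL6 (ENSG00000136244), the founding cytokine of the family, crossed over between the arms. At 8 h the TGFβ libraries held 5.57, 4.78 and 6.35 TPM and the untreated ones 1.73, 1.65 and 2.55 TPM. At 24 h the arms overlapped, with 4.34, 4.18 and 4.10 TPM against 4.12, 3.78 and 3.71 TPM. By 48 h untreated libraries held 13.7, 14.3 and 13.4 TPM and TGFβ libraries 6.05, 5.53 and 5.45 TPM, without overlap. The log2 difference between the arms was 1.53 ± 0.10 (SE) at 8 h, 0.31 ± 0.10 at 24 h and -1.22 ± 0.08 at 48 h. With the 4 reference genes the values at 24 and 48 h were 0.75 and -0.87, so the size of both depended on the scaling. In untreated cells IL6 rose 3.27-fold from 24 to 48 h (log2 1.71 ± 0.09, adjusted p = 1.5e-12, limma voom), with all 3 libraries at 48 h above all 3 at 24 h. In the TGFβ arm the same interval gave 0.18 ± 0.09 (adjusted p = 0.16), with all libraries at 48 h above those at 24 h, and it passed with the 4 reference genes (0.61, adjusted p = 2.2e-05). The difference between these changes was not tested. From 0 to 8 h IL6 fell by 0.48 ± 0.12 on the log2 scale in untreated cells (adjusted p = 0.0032), with overlapping libraries. This rested on few reads, 70 to 87 estimated counts per library. The call was lost without replicate 2 or 3 at 0 h or replicate 1 or 2 at 8 h of the untreated arm (log2 -0.47, -0.47, -0.47 and -0.45, adjusted p = 0.013 to 0.015), and also, among other settings, with length-scaled counts, where adjusted p = 0.023.

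LIF (ENSG00000128342), a ligand of the LIFR and IL6ST complex, also changed side. Untreated libraries held 29.1, 21.2 and 24.5 TPM at 0 h and TGFβ libraries 22.8, 20.2 and 24.3 TPM. At 8 h the values were 34.0, 32.7 and 30.6 TPM in untreated cells and 44.8, 40.7 and 38.7 TPM with TGFβ. At 48 h they were 38.8, 34.4 and 35.2 TPM in untreated cells and 15.7, 17.6 and 15.6 TPM with TGFβ. The groups did not overlap at 8 h, where the TGFβ arm was higher, nor at 48 h, where it was lower. Log2 differences were 0.41 ± 0.06 at 8 h, -0.25 ± 0.07 at 24 h and -1.19 ± 0.07 at 48 h. At 24 h the libraries overlapped (20.8 to 25.9 TPM against 19.8 to 22.9 TPM). Without untreated replicate 1 or 3 or TGFβ replicate 2 at 24 h the difference was -0.20, -0.24 and -0.22, and it became 0.20 with the 4 reference genes. That scaling moves the median of all genes by 0.43 on the log2 scale at 24 h, by 0.34 at 48 h and by 0.04 at 8 h. Within untreated cells LIF rose from 0 to 8 h by 0.34 ± 0.06 (adjusted p = 0.00018, but 0.012 with length-scaled counts, and 0.015 with the 4 reference genes, where the value was 0.18) and from 24 to 48 h by 0.54 ± 0.06 (adjusted p = 6.3e-07). In the TGFβ arm it fell by 0.40 ± 0.07 from 24 to 48 h (adjusted p = 6.3e-05), which missed the threshold in limma-trend tests of log2(TPM + 1) and log2(TPM + 0.1) (adjusted p = 0.012 and 0.011). This direction flipped with the 4 reference genes (0.02, where the median of all genes moves by 0.42).

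CLCF1 (ENSG00000175505), a cytokine whose receptor complex holds LIFR and IL6ST, had the highest mean of the ligands in untreated cells at 0 h, with libraries overlapping those of LIF, and stayed between 19.9 and 30.2 TPM in all 12 untreated libraries. The TGFβ arm held 24.3 to 25.1 TPM at 8 h, 15.03 to 16.7 TPM at 24 h and 17.3 to 18.3 TPM at 48 h, below every untreated library of the same time in each case. The log2 differences were -0.08 ± 0.09, -0.44 ± 0.10 and -0.62 ± 0.10 at 8, 24 and 48 h, and with the 4 reference genes the value at 24 h was 0.003. No tested change with time passed within an arm, with values of -0.01 (untreated, 8 against 0 h), 0.24 (untreated, 48 against 24 h, adjusted p = 0.04) and 0.06 (TGFβ arm, 48 against 24 h). The last 2 became 0.76 and 0.48 with the 4 reference genes and then passed (adjusted p = 3.7e-10 and 6.5e-07), and the untreated one passed without replicate 2 of both arms at 0 and 24 h (0.16, adjusted p = 0.0023). Its receptor CNTFR stayed at or under 0.116 TPM in every group mean. A gene on the same strand, ENSG00000256514, shares 61 exon bases with CLCF1 and held between 19.97 and 46.6 TPM in the groups, so reads of those bases may be split between them.

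Summed over the ligands, TPM per library stood at 59.1 ± 8.2 (SD, n = 3) in untreated cells and 55.3 ± 6.0 in the TGFβ arm at 0 h. At 8 h the sums were 65.3 ± 1.4 and 116.1 ± 4.8, and at 48 h 82.4 ± 2.4 and 67.7 ± 1.8 (SD). The makeup of this sum differed between the arms. IL11 made up 6.45% ± 0.44 of it in untreated cells at 0 h and 6.23% ± 0.72 at 48 h, but 38.3% ± 1.3 in the TGFβ arm at 8 h and 41.4% ± 0.2 at 48 h. IL6 made up 16.8% ± 0.7 in untreated cells at 48 h and 8.39% ± 0.43 with TGFβ. LIF made up 40.6% ± 1.8 of the sum at 0 h and 24.1% ± 1.3 at 48 h in the TGFβ arm, and 42.2% ± 2.7 and 43.9% ± 1.8 in untreated cells.

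**Figure D2:**
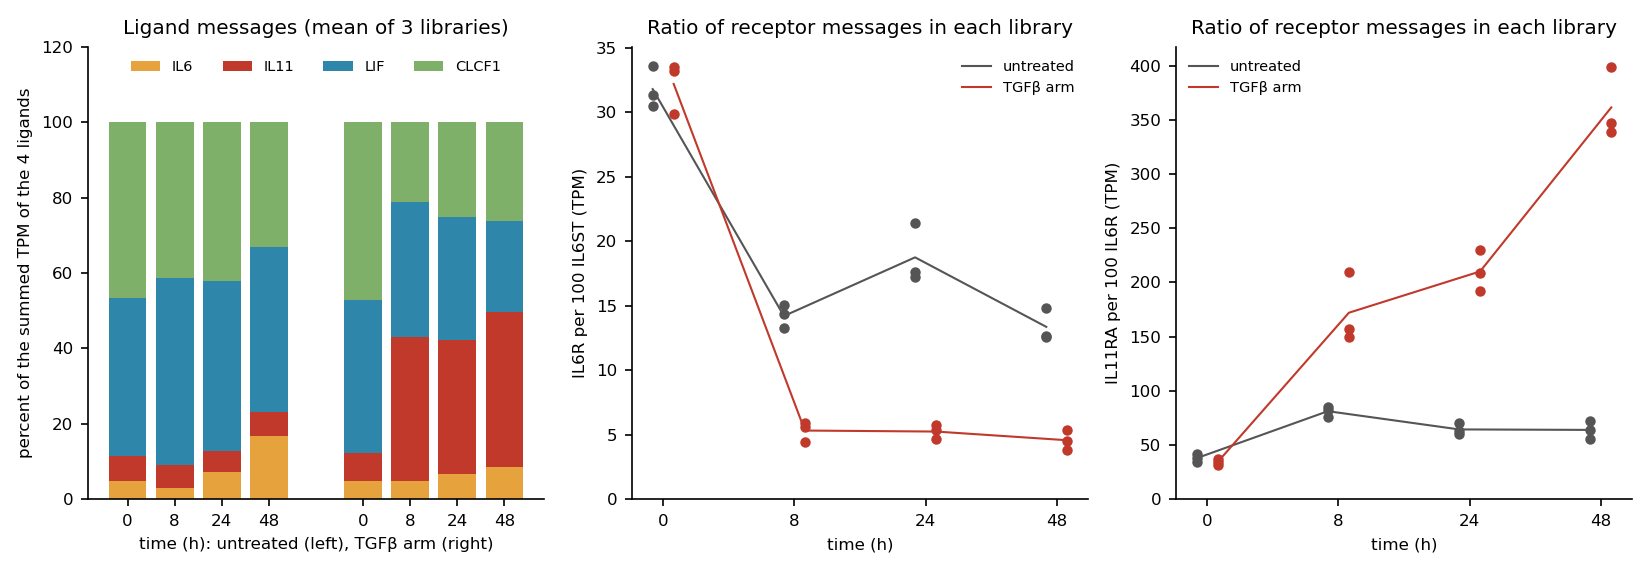
Left, share of each ligand in the summed TPM of the 4 ligands in percent (stacked bars, mean of 3 libraries) at 0, 8, 24 and 48 h in untreated cells and the TGFβ arm. Middle and right, TPM of IL6R per 100 of IL6ST and of IL11RA per 100 of IL6R in each library (points) with the group mean (lines), time points being equally spaced. IL11 takes 41.4% of the bar in the TGFβ arm at 48 h against 6.23% in untreated cells, and IL11RA per 100 IL6R reaches 338.4 to 398.9 there against 55.9 to 71.9.

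IL6R (ENSG00000160712), the receptor that makes cells responsive to IL-6, was the member most strongly lower with TGFβ. Untreated libraries held 19.2, 17.6 and 20.3 TPM at 0 h, 10.3, 9.50 and 10.2 TPM at 8 h, 14.1, 14.7 and 15.4 TPM at 24 h and 13.4, 15.6 and 13.7 TPM at 48 h. TGFβ libraries held 15.5, 17.1 and 17.8 TPM at 0 h, 4.60, 4.10 and 3.66 TPM at 8 h, 4.01, 3.42 and 4.21 TPM at 24 h and 3.89, 3.73 and 3.23 TPM at 48 h. The message was lower at 8 h than at 0 h in both arms, and from 8 h on every TGFβ library lay below every untreated one. Log2 differences between the arms were -1.54 ± 0.06 at 8 h, -2.03 ± 0.05 at 24 h and -2.01 ± 0.06 at 48 h, with rank 126 of 17453 genes from the bottom at 8 h. Between 0 and 8 h IL6R fell by 0.98 ± 0.05 in untreated cells (adjusted p = 1.5e-12), and the corresponding value in the TGFβ arm was -2.43 ± 0.05. From 24 to 48 h untreated cells gave -0.16 ± 0.05 (adjusted p = 0.0078), with overlapping libraries, and the TGFβ arm -0.15 ± 0.06 (adjusted p = 0.07, but 0.28 and adjusted p = 0.0073 with the 4 reference genes, and -0.21 and adjusted p = 0.0082 without replicate 2 of both arms at 0 and 24 h). The call in untreated cells was lost when any of 13 single libraries was left out (adjusted p = 0.01 to 0.046, log2 -0.14 to -0.18). They were untreated replicates 1 and 3 at 24 h, replicates 1, 2 and 3 at 48 h and at 8 h, and replicate 3 at 0 h, and TGFβ replicate 1 at 8 h and replicates 1, 2 and 3 at 48 h. It was also lost with edgeR (adjusted p = 0.012) and in most other settings, and it changed sign with the 4 reference genes (0.35).

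IL11RA (ENSG00000137070), the specific receptor of IL-11, differed in the other direction late in the time course. Untreated libraries held 8.47, 8.10 and 7.74 TPM at 8 h and 9.65, 8.69 and 8.76 TPM at 48 h. TGFβ libraries held 7.21, 6.13 and 7.68 TPM at 8 h, slightly lower, and 13.2, 13.0 and 12.9 TPM at 48 h, all higher. At 8, 24 and 48 h the log2 differences were -0.13 ± 0.10, -0.24 ± 0.10 and 0.43 ± 0.10. The first became 0.04 when the difference at 0 h was subtracted, and the second 0.20 with the 4 reference genes. From 24 to 48 h IL11RA rose by 0.49 ± 0.10 in the TGFβ arm (adjusted p = 0.00057), while untreated cells gave -0.18 ± 0.10 (adjusted p = 0.16). The direction in untreated cells depended on the scaling, with a rise of 0.33 with the 4 reference genes (adjusted p = 0.00036) and -0.24 (adjusted p = 0.009) without replicate 2 of both arms at 0 and 24 h. The call in the TGFβ arm was lost when the fit held only the libraries of the groups compared (adjusted p = 0.021). Per 100 TPM of IL6R there were 37.8 ± 3.8 (SD, n = 3) of IL11RA in untreated cells at 0 h and 63.9 ± 8.0 at 48 h, but 34.2 ± 2.6 and 361.5 ± 32.7 in the TGFβ arm. A gene of the same strand, ENSG00000258728, shares 32.5% of the IL11RA exon bases and reached at most 0.17 TPM in a group.

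IL6ST (ENSG00000134352), the shared chain, was among the most abundant members in both arms. At 8 h untreated libraries held 68.6, 71.8 and 71.1 TPM and TGFβ libraries 77.6, 73.8 and 82.2 TPM. At 48 h they held 106.1, 104.9 and 109.1 TPM and 73.1, 82.4 and 84.1 TPM. The TGFβ arm was thus higher at 8 h and lower at 48 h in every library. The log2 difference was 0.12 ± 0.12 at 8 h, -0.12 ± 0.12 at 24 h, where the libraries overlapped, and -0.37 ± 0.12 at 48 h. With the 4 reference genes the values at 24 and 48 h were 0.32 and -0.01, and subtracting the difference at 0 h gave 0.12 at 24 h. Within the TGFβ arm 8 h differed from 0 h by 0.67 ± 0.12, with all libraries higher, which is given as a value only. In untreated cells the values were 0.30 ± 0.12 from 0 to 8 h (adjusted p = 0.058) and 0.28 ± 0.12 from 24 to 48 h (adjusted p = 0.066). Neither passed, but both did when the fit held only the groups compared (adjusted p = 0.0029 and 0.0089). From 24 to 48 h the TGFβ arm gave 0.04 ± 0.12 (adjusted p = 0.82), and with the 4 reference genes the changes over this interval were 0.80 in untreated cells and 0.46 in the TGFβ arm (adjusted p = 4.5e-05 and 0.0084). The ratio of IL6R per 100 IL6ST was 4.56 ± 0.74 (SD) in the TGFβ arm at 48 h against 13.4 ± 1.3 in untreated cells, from 32.2 ± 2.1 and 31.8 ± 1.6 at 0 h.

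LIFR (ENSG00000113594) and OSMR (ENSG00000145623), the partners of IL6ST, were both lower with TGFβ late in the time course. LIFR held 29.1 to 30.3 TPM in untreated libraries at 8 h, 36.5 to 45.9 TPM at 24 h and 32.0 to 32.9 TPM at 48 h. In the TGFβ arm it held 16.5 to 19.2, 18.5 to 22.0 and 18.2 to 19.2 TPM, without overlap at any of these times. The log2 differences were -0.67 ± 0.10, -0.88 ± 0.10 and -0.62 ± 0.10, of which the last 2 became -0.44 and -0.27 with the 4 reference genes. In untreated cells LIFR fell from 24 to 48 h by 0.37 ± 0.10 (adjusted p = 0.0051). That call was lost without untreated replicate 2 at 24 h, which stood apart at 45.9 TPM (log2 -0.28, adjusted p = 0.038), and without replicate 1, 2 or 3 at 48 h (log2 -0.35, -0.36 and -0.38, adjusted p = 0.022, 0.017 and 0.012). It turned to 0.15 with the 4 reference genes, a scaling that moves the median of all genes by 0.52 over this interval.

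OSMR was higher at later times in both arms. Untreated libraries went from 57.2, 62.9 and 58.1 TPM at 0 h to 185.7, 184.6 and 184.5 TPM at 48 h, and TGFβ libraries from 49.1, 62.6 and 59.2 TPM to 134.5, 129.2 and 127.4 TPM. At 24 h untreated cells held 129.4 to 136.0 TPM and the TGFβ arm 84.6 to 89.3 TPM. The increase passed from 0 to 8 h in untreated cells (0.32 ± 0.05, adjusted p = 2.6e-05, lost with the 4 reference genes at 0.15) and from 24 to 48 h both in untreated cells (0.40 ± 0.05, adjusted p = 5.6e-07) and in the TGFβ arm (0.47 ± 0.05, adjusted p = 9.8e-08). Between the arms the log2 differences at 8, 24 and 48 h were -0.09 ± 0.05, -0.55 ± 0.05 and -0.47 ± 0.05, and with the 4 reference genes -0.10 and -0.12 at the last 2 times. At 48 h OSMR was the most abundant member in both arms, with 53.3% ± 0.2 (SD) of the summed TPM of the 5 receptors in untreated cells and 53.1% ± 1.9 in the TGFβ arm.

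SOCS3 (ENSG00000184557), the feedback inhibitor, had lower TPM with TGFβ from 8 h on. Untreated libraries held 17.3, 16.4 and 18.1 TPM at 0 h, 25.6, 25.0 and 23.2 TPM at 8 h, 37.8, 36.2 and 40.1 TPM at 24 h, and 32.7, 31.1 and 31.1 TPM at 48 h. TGFβ libraries held 16.7, 15.1 and 18.5 TPM, then 17.1, 17.3 and 17.6 TPM, then 23.6, 19.5 and 22.1 TPM, and 26.9, 27.0 and 26.4 TPM at the same times. Untreated cells lay above the TGFβ arm at 8, 24 and 48 h, by log2 differences (TGFβ minus untreated) of -0.45 ± 0.07, -0.77 ± 0.07 and -0.22 ± 0.07. With the 4 reference genes the last 2 were -0.33 and 0.13, so the sign at 48 h depended on the scaling. In untreated cells SOCS3 rose from 0 to 8 h by 0.46 ± 0.08 (adjusted p = 5.4e-05) and fell from 24 to 48 h by 0.32 ± 0.07 (adjusted p = 0.0011), the latter turning to 0.20 with the 4 reference genes. The TGFβ arm gave 0.04 ± 0.08 from 0 to 8 h as a value, and 0.23 ± 0.07 from 24 to 48 h (adjusted p = 0.018). That last value passed without TGFβ replicate 1 at 24 h (0.30, adjusted p = 0.006) or TGFβ replicate 2 at 0 h (0.23, adjusted p = 0.0061), and, among other settings, with DESeq2 (adjusted p = 0.008) and the 4 reference genes (0.66, adjusted p = 2.8e-09).

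**Figure D3:**
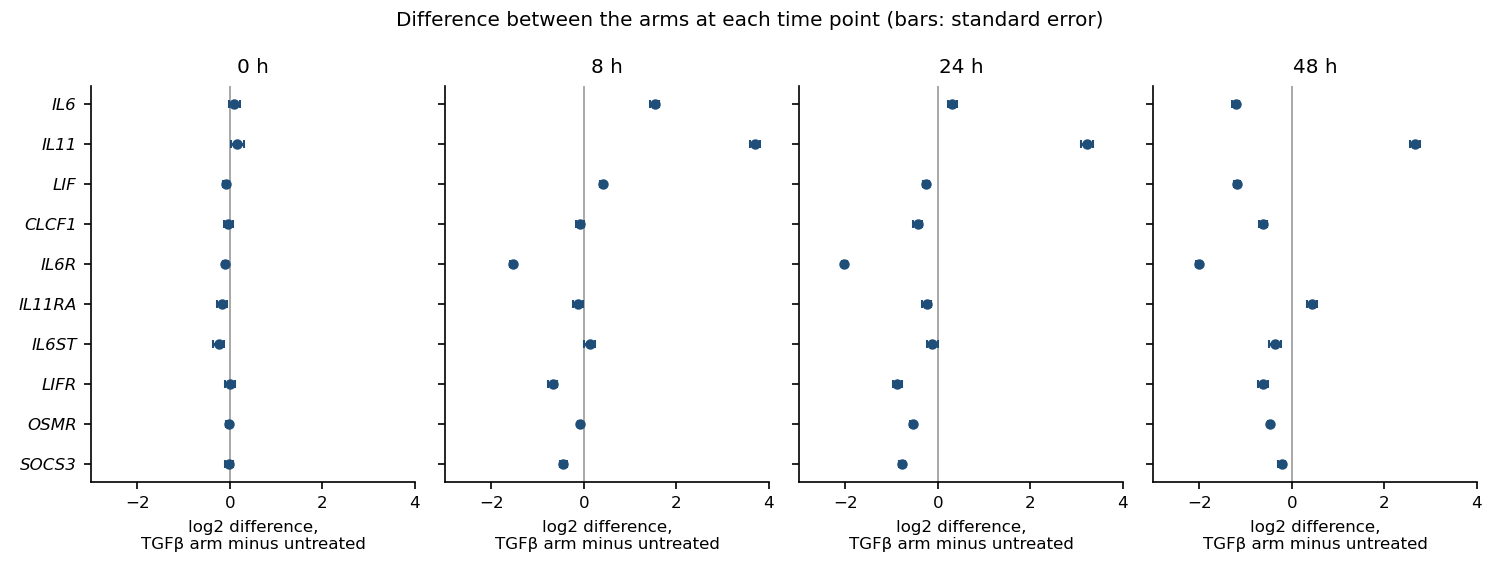
Log2 difference between the TGFβ arm and untreated cells (horizontal axes) of each member at 0, 8, 24 and 48 h, with bars for the standard error of the limma voom fit over 3 libraries per group. All members lie between -0.24 and 0.16 at 0 h, and at 8 h they run from -1.54 for IL6R to 3.70 for IL11.

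Changes within an arm are not the difference that chose the members. Earlier results of these data were known at the choice, however, so these changes are not shown to be independent of it, and nothing is read from their counts. From 0 to 8 h, 5 of 10 members passed in untreated cells (3 higher and 2 lower, background 25.9%, with 13.2% higher and 12.7% lower). From 24 to 48 h, 7 of 10 passed in untreated cells (4 higher and 3 lower, background 28.4%, with 14.7% higher and 13.6% lower). In the TGFβ arm 3 of 10 passed over that interval (2 higher and 1 lower, background 25.8%, with 12.4% higher and 13.4% lower). Leaving out replicate 2 at 0 and 24 h of both arms was an alternative chosen after seeing the data. Some of these counts moved with it, and more of all genes passed between the arms at 8 h. The counts of members in that setting are not reported here.

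By 48 h in the TGFβ arm the order of levels was OSMR (130.4 TPM), IL6ST (79.9), IL11 (28.0), SOCS3 (26.8), LIFR (18.6), CLCF1 (17.7), LIF (16.3), IL11RA (13.0), IL6 (5.67) and IL6R (3.62). Neighbours whose libraries overlapped were LIFR with CLCF1 and CLCF1 with LIF. Set beside untreated cells at 0 h, IL11 stood at the third place against the ninth and IL6R at the last against the sixth. These groups differ in arm, time and code. In untreated cells at 48 h IL11 was the last, with 5.13 TPM, and IL6R held 14.2 TPM.

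Transcripts of a gene were compared as shares of its TPM, which the choice of members did not use. Of 25 transcripts in 9 members, 1 passed an adjusted p of 0.01 in an exact permutation test of the 18 libraries at 8, 24 and 48 h (two-sided, 8000 relabellings, smallest possible p 0.00025), and 12 had an unadjusted p under 0.05. It was IL11-203, a short transcript that starts within the gene (GRCh38, chromosome 19, position 55369241, minus strand) and encodes 40 residues, against 199 residues for the full-length IL11-201 and IL11-202. Its share was 26.1, 36.0 and 27.7% in untreated libraries and 12.2, 15.3 and 9.9% in TGFβ libraries at 8 h. At 24 h the shares were 46.7, 43.1 and 37.7% against 20.1, 20.1 and 20.4%. At 48 h they were 29.7, 26.3 and 38.9% against 17.7, 24.3 and 21.5%. Untreated libraries were higher at each time without overlap, and the mean difference was -16.8 percentage points with TGFβ (p = 0.00025 by the exact permutation test, adjusted p = 0.0063). In absolute terms IL11-203 was higher with TGFβ, at 5.59 ± 1.48 TPM (SD) against 1.22 ± 0.37 TPM at 8 h, but IL11-201 (20.4 ± 0.9 against 1.60 ± 0.43 TPM) and IL11-202 (18.1 ± 0.3 against 1.19 ± 0.53 TPM) differed by more. The call rested on few reads, a mean of 23.6 estimated counts for IL11-203 in untreated libraries at 8 h. The call was lost without untreated replicate 3 at 48 h or TGFβ replicate 1 or 2 at 48 h (-15.6, -16.2 and -17.3 points) and with 24 and 48 h alone (-16.4 points). Leaving out a library leaves fewer relabellings, but the call held in 15 of the 18 tests without a single library. With 24 and 48 h alone the relabellings are too few for a single transcript to pass on its own, so that loss does not bear on the difference. As a share of estimated counts in place of TPM the difference was -7.5 points.

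Shares of IL6 transcripts did not pass the threshold. IL6-201, which starts at position 22727200 of chromosome 7, made up 6.1% ± 10.6 (SD) of IL6 in untreated cells at 0 h and 54.7% ± 5.6 at 48 h, against 9.9% ± 8.6 and 22.5% ± 16.3 in the TGFβ arm. The mean difference between the arms from 8 h on was -18.2 percentage points (p = 0.00675 by the exact permutation test, adjusted p = 0.025). IL6-204 starts upstream, at position 22725884, and gave 41.2% ± 16.8 at 0 h and 3.3% ± 0.7 at 48 h in untreated cells, against 43.2% ± 9.3 and 18.2% ± 4.8 in the TGFβ arm (difference 10 points, exact permutation p = 0.043, adjusted p = 0.09). Both encode 212 residues, and IL6-201 had a mean of 5.6 estimated counts in untreated libraries at 0 h and 274 at 48 h. The main transcript of IL6R, IL6R-202, also did not pass, with -9.3 points (adjusted p = 0.025, exact permutation test), with 54.5, 63.2 and 68.2% in the TGFβ libraries at 8 h and 75.5, 82.8 and 76.7% in the untreated ones. The read strand is not stated, and STEAP1B on the opposite strand shares 46 exon bases with IL6 at 22.0 to 46.7 TPM, so shared reads cannot be told apart. IL6-AS1, also on the opposite strand, shares 428 exon bases (9.9%) with IL6 and has no level in these data. The same holds for ENSG00000262211, with 797 exon bases of IL6ST, and LIFR-AS1, with 629 of LIFR.

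**Figure D4:**
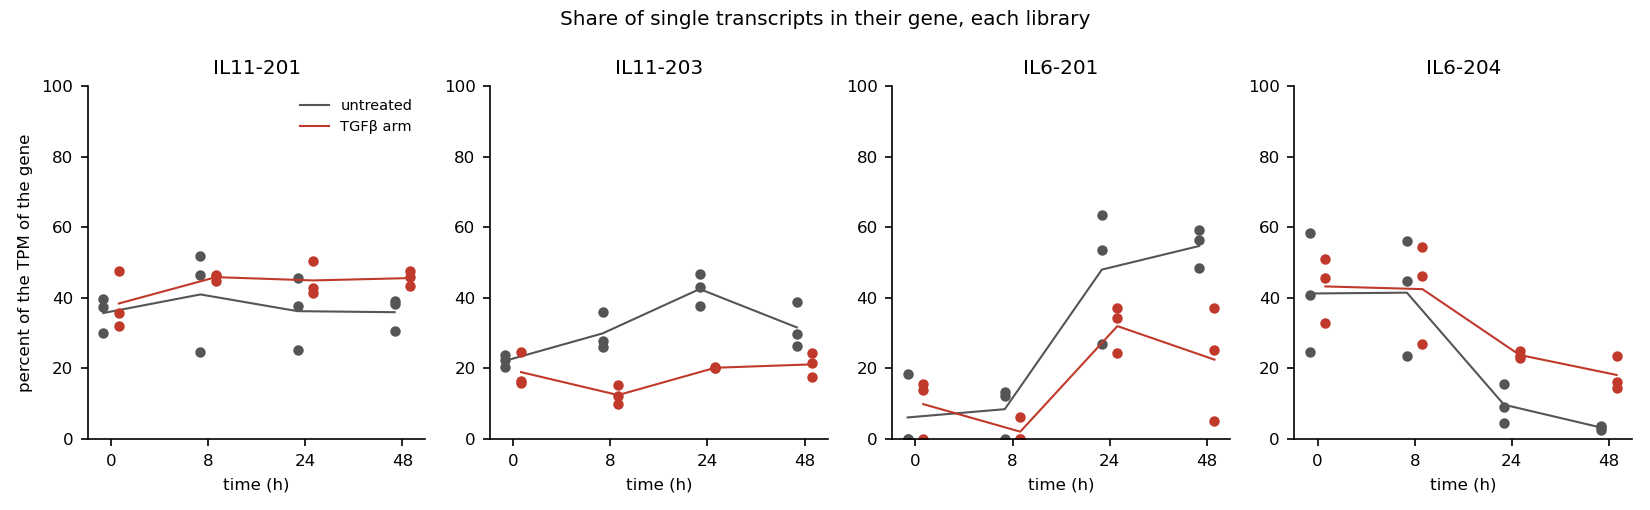
Share of 4 transcripts in the TPM of their gene (percent, axis from 0 to 100) against time in h (equally spaced time points), each point a library and lines the means of untreated cells (grey) and the TGFβ arm (red). IL11-203 stands at 26.1 to 46.7% in untreated libraries from 8 h on and at 9.9 to 24.3% with TGFβ, and IL6-204 drops to 2.5 to 3.8% in untreated libraries at 48 h.

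The wider pathway was described with a list of 58 further genes, of which 51 passed the filter on counts. OSM, IL27, IL31 and CNTFR were among the 7 that did not. At 8 h, 9 of the 51 were higher with TGFβ and 6 lower (17.6% and 11.8%, against 9.12% and 7.26% of all genes). At 24 h the counts were 10 and 18 (19.6% and 35.3%, against 15.4% and 13.8%), and at 48 h 10 and 21 (19.6% and 41.2%, against 16.1% and 16.4%). The median log2 difference was 0.01, -0.12 and -0.21 at the 3 times, against -0.02, -0.01 and -0.01 for all genes. When the 4 reference genes set the library size, the balance of the later counts was the other way at 24 h (24 higher and 10 lower) and at 48 h (19 higher and 13 lower).

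Of 6 other ligands and receptors tested, 1 was higher and 0 lower at 8 h, 2 and 1 at 24 h, and 3 and 0 at 48 h. IL31RA, a receptor chain that pairs with OSMR for IL-31, was higher by 0.84 ± 0.13 at 24 h (adjusted p = 1.7e-05) and 1.29 ± 0.13 at 48 h (adjusted p = 5.5e-08).

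Of 7 kinases and STATs, JAK1, a kinase bound to IL6ST, was higher with TGFβ, by 0.29 ± 0.05 at 8 h (81.3 ± 2.2 against 69.04 ± 1.68 TPM, SD, adjusted p = 0.00012) and 0.28 ± 0.05 at 48 h (adjusted p = 0.00012). At 24 h its 0.23 (adjusted p = 0.00076) did not pass in 5 other settings. STAT3, the main transcription factor of the pathway, was lower. Its libraries held 74.2, 69.6 and 73.0 TPM against 86.8, 89.8 and 91.7 TPM at 8 h, and 101.2 ± 1.1 TPM (SD, n = 3) against 160.1 ± 1.8 TPM at 48 h, without overlap, though its TGFβ libraries were also all lower at 0 h (58.2 to 69.6 against 69.7 to 69.8 TPM). The log2 differences were -0.25 ± 0.04 (adjusted p = 2.2e-05), -0.83 ± 0.04 (adjusted p = 6.2e-14) and -0.63 ± 0.04 (adjusted p = 4.2e-12) at 8, 24 and 48 h. At 8 h the calls of JAK1 and STAT3 were lost when the difference at 0 h was subtracted (0.26, adjusted p = 0.018, and -0.18, adjusted p = 0.024) and with the 4 reference genes (adjusted p = 0.034 and 0.059). Subtracting the difference at 0 h also ended the call of JAK1 at 48 h (0.24, adjusted p = 0.013). At 48 h, 1 of the 7 was higher and 4 lower. Among the lower ones were JAK2 and STAT5A (log2 -0.77 and -0.41), named after their values were seen.

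STAT3 target genes, a list of 28 of which 25 were tested, moved both ways, with 6 higher and 4 lower at 8 h (24% and 16%, against 9.12% and 7.26% of all genes), 4 and 10 at 24 h (16% and 40%, against 15.4% and 13.8%) and 5 and 14 at 48 h (20% and 56%, against 16.1% and 16.4%). A2M, a protease inhibitor, was at 32.4, 29.6 and 31.5 TPM with TGFβ at 48 h and at 186.7, 187.5 and 180.0 TPM without (log2 -2.57, adjusted p = 4.5e-18). FGG, the fibrinogen gamma chain, was lower at 48 h by -3.65 on the log2 scale, with 0.92, 0.83 and 1.19 TPM against 14.4, 11.9 and 13.4 TPM (adjusted p = 2.6e-14). SAA2, a serum amyloid gene, was lower at 48 h by -1.40 (adjusted p = 0.00021). FGA, the fibrinogen alpha chain, was listed at 0 in all 12 libraries of the TGFβ arm and reached 0.21 to 0.24 TPM in untreated libraries at 48 h. CEBPD, a transcription factor of the acute phase response, differed by -0.78, -1.96 and -1.64 at 8, 24 and 48 h and HIF1A, the hypoxia regulator, by -0.41, -1.14 and -1.18. In the other direction SERPINA3, a serine protease inhibitor, differed by 1.11, 1.48 and 2.22, JUNB, a subunit of AP-1, by 1.53, 0.90 and 1.49, and CCND1, cyclin D1, by 0.73, 1.19 and 0.31. Each of these differences passed the threshold, though that of CCND1 at 48 h did not with length-scaled counts (adjusted p = 0.045) and that of HIF1A at 8 h did not with the 4 reference genes (adjusted p = 0.043). FOS, another AP-1 gene, passed at 24 h (-1.18, adjusted p = 4.5e-07) and gave -0.41 and -0.22 at 8 and 48 h.

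**Figure D5:**
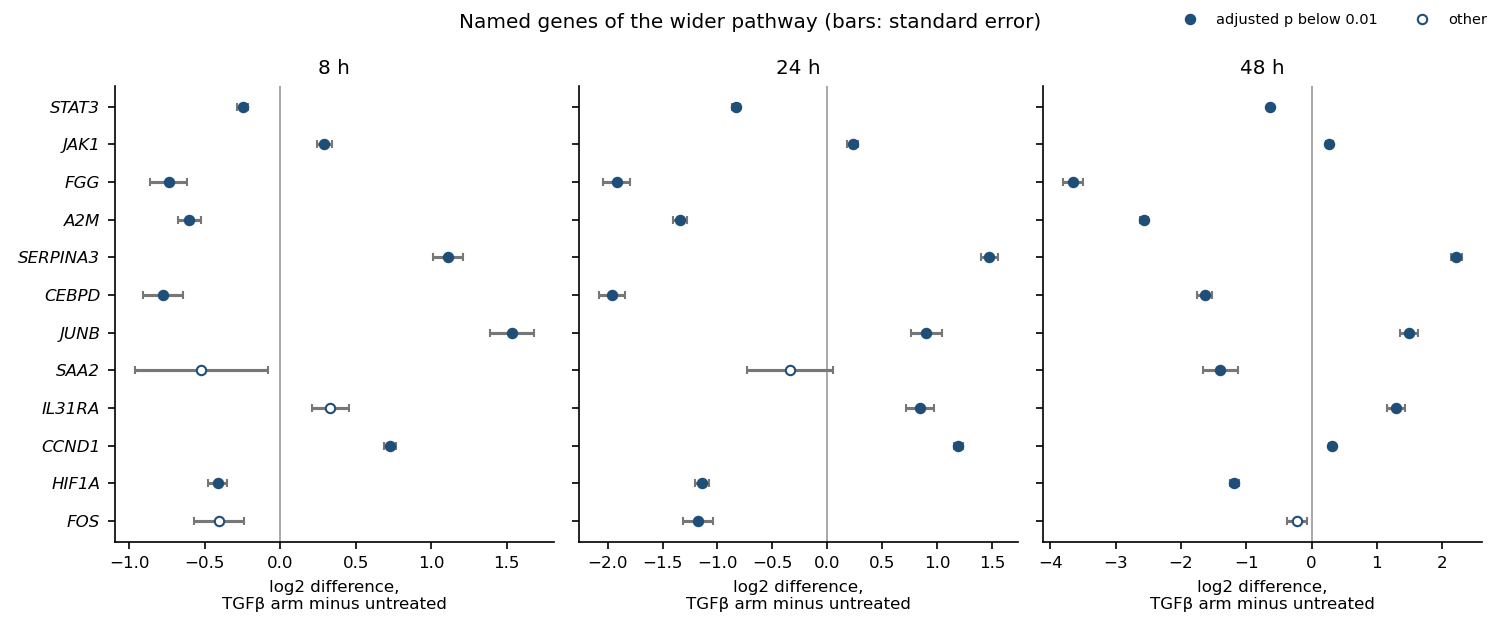
Log2 difference between the TGFβ arm and untreated cells (horizontal axes, which differ between panels) of 12 named pathway genes at 8, 24 and 48 h with standard errors, filled where the adjusted p of limma voom was below 0.01. SERPINA3 lies at 1.11, 1.48 and 2.22 and FGG at -0.74, -1.92 and -3.65, and FGA is left out because it is listed at 0 in the TGFβ arm.

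Inhibitors and sheddases were described as lists of their own. Of 11 regulators 1 was higher and 1 lower at 8 h, 1 and 4 at 24 h and 0 and 3 at 48 h, the last being SOCS2, CISH and PTPN1 (named after their values were seen, log2 -1.17, -0.66 and -0.17). SOCS1, another JAK inhibitor, gave 0.26, -0.12 and 0.18 and did not pass. ADAM10 and ADAM17, the sheddases that cut IL6R from the cell surface, form the whole of that list. They were both higher at 24 h, by 0.31 ± 0.06 (adjusted p = 0.00048) and 0.35 ± 0.06 (adjusted p = 0.00016), and ADAM17 also at 48 h (0.33 ± 0.06, adjusted p = 0.00027).

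Genes with the most similar course were found by the root-mean-square difference of 8 centred group means on the log2 scale among 13566 protein-coding genes. For IL11 they were OLFM2 (0.29), CCN2 (0.34) and ANGPTL4 (0.44), whose differences between the arms at 8 h were 3.09, 3.04 and 3.23. For IL6 they were CDH6 (0.31), ADAMTS14 (0.34) and PHLDB2 (0.36), and for LIF HK2 (0.18), MAP3K14 (0.21) and ELFN1 (0.21). For IL6R they were ID2 (0.25), ALDH1A3 (0.33) and CDX2 (0.37), with differences of -1.62, -0.93 and -0.96 at 8 h. The 8 means come from the same libraries as the members, and the likeness is a description with no test.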

How the data were processed

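RNA-Seq was done on 24 libraries of SK-MES1 cells, 3 for each of 8 groups. Per the study's methods the authors quantified transcripts with kallisto 0.43.0 on GRCh38 with Ensembl release 79. The deposited tables hold estimated counts, TPM and the effective length of 173259 transcripts per library. Transcripts were assigned to genes by identifier with GENCODE release 44, which matched 155518 of them (89.8%) and 94.82 to 95.18% of the counts. For each gene the deposited estimated counts of its transcripts were added and then rounded, and the deposited TPM values were added. Library totals of 46613589 to 77964234 estimated counts set the counting precision, and the uncertainty of splitting reads between transcripts adds to it.

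Groups were taken from the labels. Genes with at least 10 counts in at least 3 libraries were tested with limma voom (limma 3.58.1, edgeR 4.0.16 for TMM factors, R 4.3.3) on 8 group means over all 24 libraries, with Benjamini-Hochberg adjustment over 17453 genes and a threshold of 0.01. All ± values of log2 differences are standard errors. The procedure was tested on simulated data, where at the 8 h comparison of the arms 168 of 200 changed genes among 17191 were recovered with 3 false calls. Transcripts with at least 10% of the TPM of their gene were compared by exact permutation within time points. Members and gene lists were chosen with earlier results of these data known. Named were all members, STAT3, JAK1 and the up to 12 pathway genes with the largest differences past the threshold, the 3 genes nearest in course to IL11, IL6, LIF and IL6R, and genes that check the stimulation. Some further genes are marked as chosen after their values were seen. Some genes that these rules name are not reported here. DESeq2 1.42.0, edgeR, tests of TPM, other scalings and filters, and fits without single libraries were alternatives, and leaving out replicate 2 of both arms at 0 and 24 h was added after seeing the data. Figures were drawn in matplotlib 3.10.9, and tables were handled in pandas 2.3.3 and numpy 2.4.6 under Python 3.11.15.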

Additional observations from a re-analysis of the deposited data

Results flagged for a closer look

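In 4 members all TGFβ libraries lay on one side of the untreated libraries at 8 h and on the opposite side at 48 h. The change of the difference between these times was not tested, and the members were chosen on these comparisons. IL6 was 1.531 higher with TGFβ on the log2 scale at 8 h and differed by -1.22 at 48 h. LIF gave 0.406 at 8 h and -1.191 at 48 h. IL11RA moved the other way, with -0.133 at 8 h, which became 0.036 when the difference at 0 h was subtracted, and 0.435 at 48 h. IL6ST gave 0.124 at 8 h and -0.366 at 48 h, with a standard error of 0.12 each, and scaling to the 4 reference genes left -0.013 at 48 h. The 8 h and 48 h libraries carry different codes in each arm, and the part of the code was not tested.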

How the results depend on the processing

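Leaving out single libraries gave 6 to 6, 6 to 8 and 8 to 9 members past the threshold between the arms at 8, 24 and 48 h, and within an arm 4 to 5 (untreated 0 to 8 h), 5 to 7 (untreated 24 to 48 h) and 3 to 4 (TGFβ arm 24 to 48 h). Pathway genes past it ranged from 7 to 9 higher and 6 to 7 lower at 8 h, 10 to 10 and 17 to 19 at 24 h, and 9 to 11 and 21 to 22 at 48 h. All genes ranged from 0 to 1 at 0 h, 2204 to 3246 at 8 h, 4278 to 5638 at 24 h and 4830 to 6186 at 48 h, and within the arms from 3525 to 5100, 3971 to 5497 and 3489 to 5029. Transcripts past the threshold ranged from 0 to 2, with 0 without untreated replicate 3 or TGFβ replicate 1 or 2 at 48 h and 2 without TGFβ replicate 2 at 8 h or replicate 3 at 48 h, and were 0 with 24 and 48 h alone. Those times alone leave too few relabellings for a single transcript to pass on its own.

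At 0 h DESeq2 called 8 genes of all, an adjusted p of 0.05 called 1, and leaving out replicate 2 of both arms at 0 and 24 h called 2. That last setting, chosen after seeing the data, gave 4785 genes and 14 lower pathway genes at 8 h. With the 4 reference genes as library size 9841 genes passed at 24 h, 11022 in untreated cells and 8978 in the TGFβ arm from 24 to 48 h. It gave 3 members in untreated cells from 0 to 8 h, beside 998 higher and 3301 lower among all genes. Length-scaled counts also gave 3, beside 1783 higher and 1697 lower among all genes. With the 4 reference genes 8 members passed in the TGFβ arm from 24 to 48 h. Pathway genes were then 24 higher and 10 lower at 24 h and 19 and 13 at 48 h. Between the arms at 24 h this scaling changed the sign of LIF (0.195), CLCF1 (0.003), IL11RA (0.203) and IL6ST (0.322). It also changed that of SOCS3 (0.132) at 48 h and of LIFR (-0.024) at 0 h. Within an arm from 24 to 48 h, values past the threshold that it reversed were IL6R (0.349), LIFR (0.147) and SOCS3 (0.195) in untreated cells. In the TGFβ arm LIF (0.017) was reversed. Values within an arm that were not past it also changed sign. In untreated cells they were IL11 (-0.133) from 0 to 8 h and IL11RA (0.332) from 24 to 48 h. In the TGFβ arm they were SOCS3 (-0.051) from 0 to 8 h, and IL6R (0.276) and LIFR (0.314) from 24 to 48 h. Lower pathway genes at 8 h were 13 with library totals, 10 with upper-quartile factors and 11 at an adjusted p of 0.05. Of the genes past the threshold at 8, 24 and 48 h, 55.7, 52.7 and 49.5% were higher, but 33.9, 34.2 and 35.6% with library totals, 44.7, 42.0 and 42.2% with upper-quartile factors, and 73.8, 94.0 and 87.8% with the reference genes. Fitting only the groups compared gave 16 higher and 14 lower pathway genes at 8 h, with 5304 genes at 8 h, 2769 at 24 h and 2543 in the TGFβ arm. Subtracting the difference at 0 h gave 1376, 2893 and 3611 genes at 8, 24 and 48 h and 5, 6 and 6 higher pathway genes. Asking also for a 2-fold change left 3, 2 and 4 members at 8, 24 and 48 h, with 0, 1 and 0 within the arms. It left 3 higher and 0 lower pathway genes at 8 h, 3 and 8 at 24 h and 4 and 9 at 48 h, and 428, 1096 and 1464 genes, with 418, 729 and 593 within the arms. Except where a setting itself asks for more or uses fewer libraries, the cause was not tested.

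The replicate numbers are not stated to pair the arms, and deviations of same-numbered libraries correlated between -0.056 and 0.249. With a replicate block 6, 7 and 9 members passed between the arms, with 3198, 5657 and 6226 genes, and 10 higher and 8 lower, 10 and 18, and 11 and 22 pathway genes at 8, 24 and 48 h. For low messages such as IL6 and IL11-203 the depth limits the precision.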
